A study of Homo sapiens with 12 samples.

Results

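The genes described here make up the DNA replication and repair machinery as it was represented on a 2-colour microarray. Members were chosen by a rule on gene symbols that uses no measured value, although earlier results of these data were known. It took MCM, ORC, RFC, RPA, primase, replicative polymerase, DNA ligase, RAD, XRCC, ERCC, MSH, MLH, PMS and FANC genes, together with a short set of single genes such as FEN1, EXO1, PARP1, APEX1 and ATM. The rule found 57 genes among the 5499 genes that the array's annotation names by a single symbol. They were carried on 63 probes, with 2 probes for MCM7, MLH3, MSH5, ORC4, POLD1 and POLD3. RAD21, a cohesin subunit, and RAD54L2, an ATP-dependent helicase of the SNF2 family, entered through their symbols alone, and PMS2P1 is a pseudogene-type copy of PMS2.

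The cells were H460, a human non-small cell lung cancer line that retains wild-type p53. Each of the 12 arrays set RNA of cells exposed to 1 drug for 24 h against RNA of untreated cells. Cisplatin was given at 5 µM, 5-FU (5-fluorouracil) at 1 µM and paclitaxel at 5 nM, while cytarabine and cytochalasin D were both used at 0.2 µM. Each drug had 2 replicates. Both 5-FU replicates were hybridised in both dye orientations, which gave 4 arrays, whereas the other 4 drugs had 2 arrays each, all with the treated RNA in channel 1. All values are log2 ratios of treated over untreated, so that 0 is no difference, after the median of every array had been set to 0. The labels do not say whether replicates were separate cultures or whether arrays shared untreated RNA, so the p-values measure the spread between these samples, which may be technical. The drugs were compared at these doses only, and no compound had a dose series. Because only ratios were deposited, the identity of the line could not be checked against marker levels.

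Replication starts where the origin recognition complex and CDC6 load the ring of MCM2 to MCM7, the replicative helicase. DNA polymerase alpha and primase then lay down primers, RFC loads the sliding clamp, the RPA trimer covers single-stranded DNA, and polymerases delta and epsilon copy the strands, with FEN1 and LIG1 finishing the lagging strand. Repair uses many of the same proteins: base excision removes single damaged bases, including uracil and fluorouracil, mismatch repair corrects copying errors, nucleotide excision cuts out bulky lesions such as platinum adducts, and recombination and end joining deal with breaks. 5-FU and cytarabine are pyrimidine analogs that act as antimetabolites, cisplatin crosslinks DNA, paclitaxel stabilises microtubules and cytochalasin D caps actin filaments.

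Promoters are shown for members whose values separate the drugs below: PARP1, MSH6 and APEX1, which fell with 5-FU, and EXO1, RFC5 and MCM7, which were higher with cisplatin than with other drugs. The sequences are the 250 bases before the most upstream RefSeq start of each gene in GRCh38.p14, 5′ to 3′ on the gene's own strand. Capitals mark matches on either strand to a CCAAT box (CCAAT), a GC box (GGGCGG) or an E2F-type site (TTTCCCGC, TTTCGCGC, TTTGCCGC or TTTGGCGC). They lie at chr1:226408094-226408343 (minus strand), chr2:47782895-47783144 (plus strand), chr14:20454976-20455225 (plus strand), chr1:241847954-241848203 (plus strand), chr12:118016453-118016702 (plus strand) and chr7:100101398-100101647 (minus strand), in that order.
PARP1: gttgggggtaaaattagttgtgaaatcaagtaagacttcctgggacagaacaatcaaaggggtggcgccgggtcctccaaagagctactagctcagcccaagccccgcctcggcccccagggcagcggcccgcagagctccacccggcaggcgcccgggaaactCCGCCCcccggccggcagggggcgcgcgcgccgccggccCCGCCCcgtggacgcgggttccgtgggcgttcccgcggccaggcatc
MSH6: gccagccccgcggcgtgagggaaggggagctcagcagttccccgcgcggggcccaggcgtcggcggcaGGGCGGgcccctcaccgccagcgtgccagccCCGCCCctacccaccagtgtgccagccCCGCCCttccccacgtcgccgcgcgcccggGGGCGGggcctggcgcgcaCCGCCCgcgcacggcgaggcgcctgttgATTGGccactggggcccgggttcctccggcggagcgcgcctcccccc
APEX1: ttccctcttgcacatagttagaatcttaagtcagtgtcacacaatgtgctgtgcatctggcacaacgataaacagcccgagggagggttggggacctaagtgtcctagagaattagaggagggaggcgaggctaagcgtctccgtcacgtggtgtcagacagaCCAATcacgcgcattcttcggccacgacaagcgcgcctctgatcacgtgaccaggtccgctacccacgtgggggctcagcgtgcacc
EXO1: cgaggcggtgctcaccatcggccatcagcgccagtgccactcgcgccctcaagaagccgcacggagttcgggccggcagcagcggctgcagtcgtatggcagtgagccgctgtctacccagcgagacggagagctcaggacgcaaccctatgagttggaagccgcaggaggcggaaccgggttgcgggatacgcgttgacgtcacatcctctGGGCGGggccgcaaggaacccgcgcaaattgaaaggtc
RFC5: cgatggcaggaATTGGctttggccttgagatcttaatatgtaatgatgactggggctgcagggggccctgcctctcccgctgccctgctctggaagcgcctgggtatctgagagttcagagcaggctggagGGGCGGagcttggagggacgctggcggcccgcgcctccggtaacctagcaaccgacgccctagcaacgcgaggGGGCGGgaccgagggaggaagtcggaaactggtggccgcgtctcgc
MCM7: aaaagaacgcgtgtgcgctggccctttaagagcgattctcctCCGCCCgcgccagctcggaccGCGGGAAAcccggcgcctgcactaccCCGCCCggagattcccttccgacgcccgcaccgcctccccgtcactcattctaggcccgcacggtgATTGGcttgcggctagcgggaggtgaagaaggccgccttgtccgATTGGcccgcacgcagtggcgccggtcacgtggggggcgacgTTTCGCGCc

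MCM7 held 2 E2F-type sites, while the other 5 promoters shown held none. The PARP1 window had 2 GC boxes and no CCAAT box, the MSH6 window had 5 GC boxes and 1 CCAAT box, and the APEX1 window had 1 CCAAT box and no GC box. PARP1, MSH6 and APEX1 therefore had no searched motif common to all 3. Promoters were found for 50 of the 57 members. An E2F-type site was present in 9 of those 50 (18%), namely FANCC, LIG1, MCM3, MCM7, ORC3, PMS2, POLA1, POLA2 and RFC3, against 2.78% of all 27305 promoters. GC boxes were present in 62.0% of members and 42.2% of all promoters, and CCAAT boxes in 20 of the 50 members and 33.0% of all promoters. A match describes the letters in this window and was not tested as a binding site.

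How many members were measured depended on the drug. Values were present for 31 to 51 of the 57 members on the 5-FU arrays and for 51 to 57 on the others, and 21 members had a value on all 12 arrays. Treated RNA was in channel 1 throughout for 4 drugs, so a difference between channels could be estimated from the 5-FU pairs alone. The fit used for the calls below, with variances moderated by limma, therefore carried a channel term, and 41 members could be tested in at least 1 drug. The 16 that could not were ERCC3, ERCC4, ERCC6, ERCC8, FANCC, MSH4, POLB, POLD3, POLE2, POLH, PRIM2, RAD1, RAD54L, RFC5, XRCC2 and XRCC6. A fit without that term tested 56 members, all except MSH4, which had a value on 1 array (-0.05). For 2 of the 4 single-orientation drugs, the estimated difference is the same with and without the term, but its error and hence its call can change. Without the term, members differing went from 11 to 8 for cytarabine against cisplatin, from 6 to 4 for cisplatin against paclitaxel and from 9 to 6 for cisplatin against cytochalasin D. The median channel effect was 0.06 over the 41 members and -0.0049 over all 5123 features with one. The direction of the deposited ratio was set so that MDM2, a p53 target, is positive with 5-FU, and is likely rather than stated. MDM2 then lay between 1.15 and 1.80 on the 5-FU arrays and at 2.74 and 2.57 with cisplatin, and CDKN1A, the p53-induced cell cycle inhibitor, was at 2.41 and 2.57 on its 2 measured 5-FU arrays and at 3.12 and 4.20 with cisplatin.

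**Figure D1:**
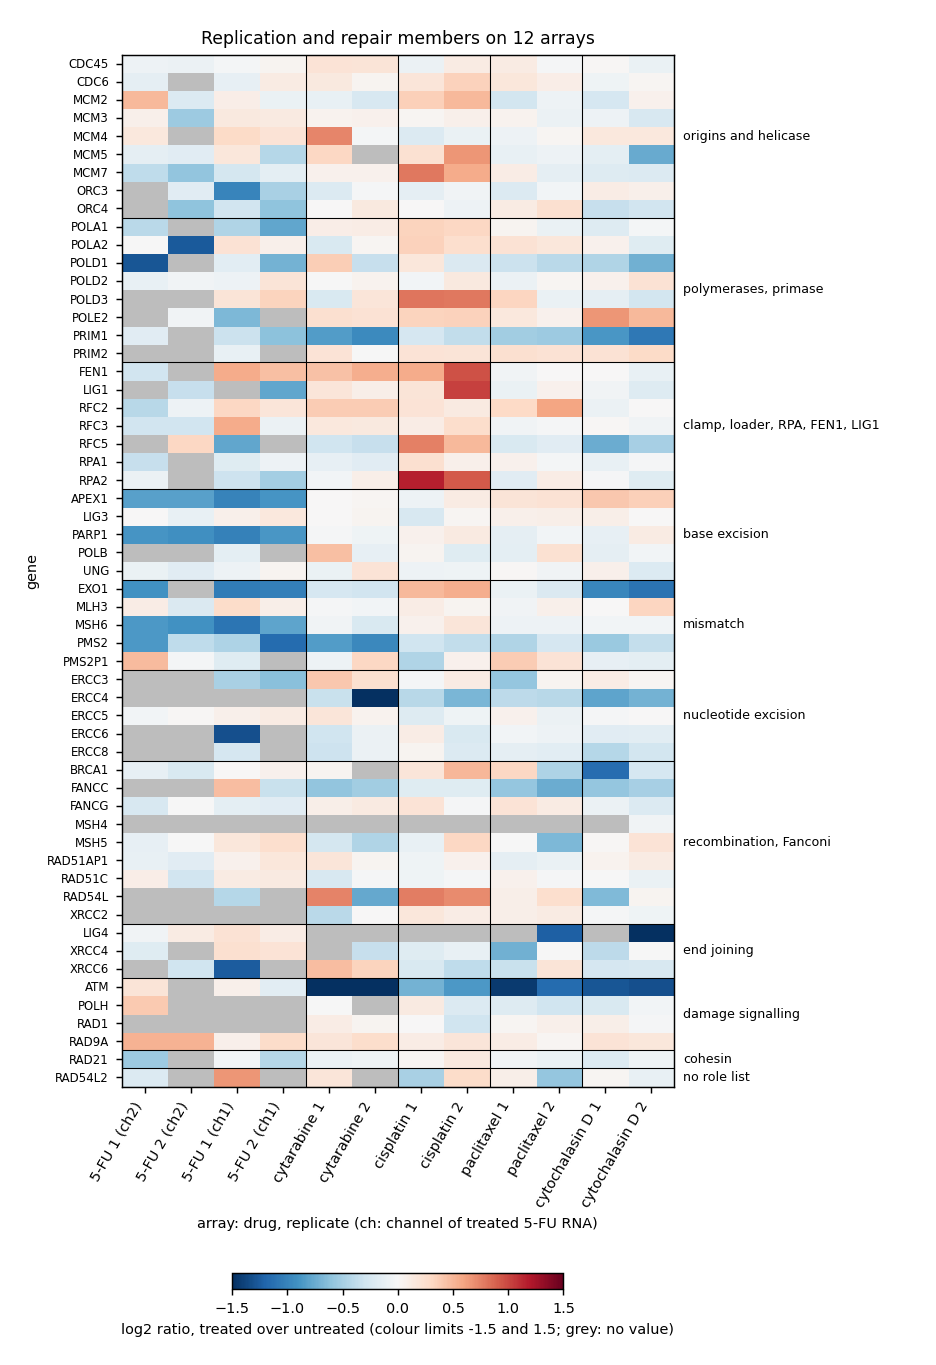
Log2 ratio of treated over untreated for the 57 members (rows, grouped by role) on the 12 arrays (columns, with drug and replicate). Colour runs from blue (lower) through white to red (higher) between -1.5 and 1.5, and grey marks no value. PARP1, MSH6 and APEX1 are blue on all 4 5-FU arrays, ATM is blue on the 8 arrays of the other drugs, and RPA2 is red with cisplatin.

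With 5-FU, 5 of 24 tested members fell (APEX1, MCM7, MSH6, PARP1 and PMS2) and RAD9A rose, against 11.2% of all features lower and 4.44% higher. With cytarabine, 4 of 36 fell (ATM, PMS2, PRIM1 and RAD21) and RAD9A rose, against a background of 11.1% lower and 10.9% higher. Cisplatin raised 5 of 40 (EXO1, MCM7, POLA1, RAD9A and RPA2) and lowered ATM, where 8.54% of all features were higher and 7.8% lower. Under paclitaxel 0 of 40 rose by limma's adjusted p and 2 fell (ATM and PRIM1), with 2.65% and 4.05% of features called. In either direction, 12 of the 40 members and 1244 of 4796 features were under an unadjusted p of 0.05. Cytochalasin D lowered 6 of 40 (ATM, EXO1, PMS2, POLD1, PRIM1 and RAD21) and raised APEX1 and RAD9A, against 6.33% and 4.38%. ATM and RAD9A were each called in 4 of the 5 drugs. As shares, 20.8% of tested members were lower with 5-FU, and 6 of 40 with cytochalasin D, both above the share over all features, whereas cytarabine (11.1%) matched its background. Also above it were cisplatin higher (12.5%), paclitaxel lower (5%) and cytochalasin D higher (5%). Below it were 5-FU higher (4.17%), cytarabine higher (2.78%), cisplatin lower (2.5%) and paclitaxel higher (0%). These shares rest on few genes. The median member stood at -0.03 with 5-FU, cytarabine and cisplatin, at -0.09 with paclitaxel and at -0.13 with cytochalasin D, against medians of 0.0088 to 0.04 over all features.

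Without the channel term more members could be tested. In that fit 14 of 45 members fell with 5-FU (background 12.9%) and 1 rose (6.21%). The members that fell here and could not be tested with the term were ERCC3, EXO1, ORC3, ORC4, POLA1, POLD1, PRIM1, RAD21 and XRCC6. Cytarabine gave 6 lower and 3 higher of 50 (15.2% and 10.7%), cisplatin 2 lower and 6 higher of 55 (9.12% and 6.68%), paclitaxel 4 lower and 1 higher of 55 (7.77% and 1.81%), and cytochalasin D 4 lower and 2 higher of 55 (8.64% and 2.38%). The lower share in this fit was thus above the background with 5-FU (31.1%) but below it with cytochalasin D (7.27%).

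**Figure D2:**
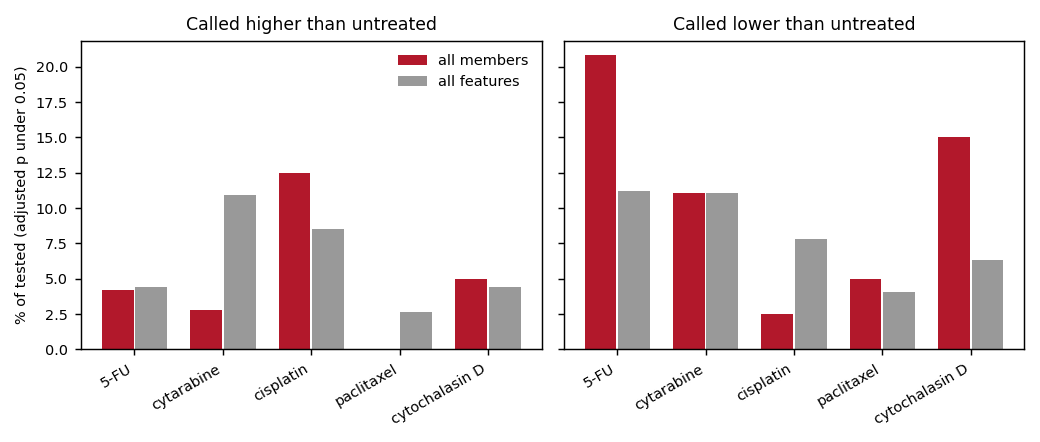
Percentage of tested members (red) and of all tested features (grey) called higher (left) or lower (right) than untreated at an adjusted p under 0.05 in the fit with the channel term, by drug. The members' bar is above the background for lower calls with 5-FU (20.8% against 11.2%) and cytochalasin D (6 of 40 against 6.33%). It is also above for lower calls with paclitaxel (5% against 4.05%). The same holds for higher calls with cisplatin (12.5% against 8.54%) and cytochalasin D (5% against 4.38%). Without the channel term the lower share with cytochalasin D was 7.27% against 8.64%.

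Among the 9 genes of origin recognition and helicase loading, the helicase subunits did not move as a block. MCM7 was the single member of this group that was called in any drug, falling by 0.34 with 5-FU (SE 0.08, adjusted p 0.0212 by limma) and rising by 0.53 with cisplatin (SE 0.10, adjusted p 0.0107). The 5-FU call on MCM7 was lost in 4 of 22 alternatives and the cisplatin call in 3 of 22. Its 2 probes disagreed. On probe 986752 the cisplatin arrays read 1.51 and 1.01, the 5-FU arrays -0.86, -1.09, -0.41 and -0.30, and the cytochalasin D arrays -0.42 and -0.39. On probe 2057948 every array of every drug lay between -0.11 and 0.14. Fitted alone, the first probe gave -0.66 with 5-FU (adjusted p 0.00707) and 0.95 with cisplatin (adjusted p 0.00633), and the second -0.02 and 0.12 (adjusted p 0.857 and 0.288). Each MCM7 value given for the gene is the mean of a probe that moved and one that stayed near 0.

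**Figure D3:**
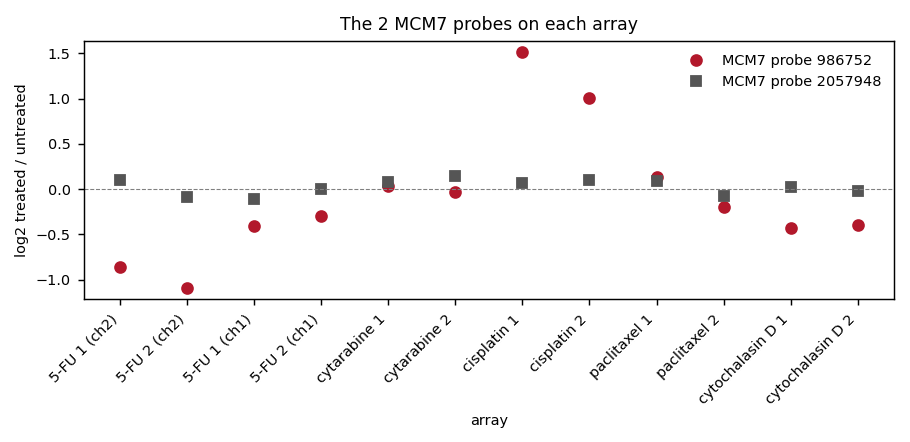
Log2 ratio of treated over untreated for the 2 MCM7 probes on each of the 12 arrays. Probe 986752 (red circles) ran from -1.09 to 1.51, and probe 2057948 (grey squares) from -0.11 to 0.14.

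The other helicase subunits passed no threshold against untreated cells. MCM2 read 0.36 and 0.48 with cisplatin and -0.12 and -0.24 with cytarabine, which did not overlap, and its 5-FU arrays spread from -0.20 to 0.48. MCM3 was between -0.24 and 0.08 on all 8 arrays of the 4 single-orientation drugs. MCM4 was at 0.73 and -0.03 in the cytarabine replicates and between -0.20 and 0.29 on its other arrays. MCM5 reached 0.23 and 0.66 with cisplatin and -0.15 and -0.75 with cytochalasin D, a difference of 0.90 (95% interval 0.34 to 1.45, adjusted p 0.0711). CDC6, the helicase loader, read 0.19 and 0.35 with cisplatin (fitted 0.26, adjusted p 0.0997), and CDC45, which activates the loaded helicase, stayed between -0.10 and 0.21 on all arrays. ORC3 and ORC4 are subunits of the origin recognition complex. Both were below 0 on each 5-FU array with a value, ORC3 at -0.17, -0.99 and -0.48 and ORC4 at -0.60, -0.29 and -0.60, and both passed without the channel term (-0.66, adjusted p 0.0138, and -0.44, adjusted p 0.00857). Of the 2 ORC4 probes, however, one read 0.30 on the 5-FU array where the other read -0.87.

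Among the 8 polymerase and primase genes, the catalytic primase subunit PRIM1 was lower than untreated on each array with a value. Its ratios were -0.84 and -0.95 with cytarabine, -0.88 and -1.07 with cytochalasin D, -0.52 and -0.55 with paclitaxel, -0.25 and -0.37 with cisplatin, and -0.17, -0.32 and -0.62 with 5-FU. Cytarabine and cytochalasin D were thus lowest and did not overlap the other drugs. PRIM1 fell with cytarabine by 0.82 (SE 0.10, 0.567 of untreated, adjusted p 0.00337), with cytochalasin D by 0.89 (SE 0.10, adjusted p 0.00502) and with paclitaxel by 0.46 (adjusted p 0.0442). The paclitaxel call was lost in 11 of 18 alternative analyses. PRIM2, the large primase subunit, went the other way without passing, at 0.20 to 0.28 on the 6 arrays of cisplatin, paclitaxel and cytochalasin D (adjusted p 0.0691 to 0.0956 without the channel term).

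POLA1, the catalytic subunit of polymerase alpha, read 0.34 and 0.31 with cisplatin and -0.41, -0.45 and -0.78 with 5-FU. It rose with cisplatin by 0.34 (SE 0.09, adjusted p 0.0476), a call lost in 14 of 18 alternatives, and fell with 5-FU by 0.60 without the channel term (adjusted p 0.00253). POLA2, its accessory subunit, was at 0.35 and 0.25 with cisplatin and passed in no drug. POLD3, an accessory subunit of polymerase delta, reached 0.81 and 0.79 with cisplatin, above each of its other arrays (-0.28 to 0.33), and rose by 0.80 without the channel term (adjusted p 0.00493). Probe 701596 gave 1.06 in that fit and probe 2880939 gave 0.54, and the second passed no threshold (adjusted p 0.0577). The catalytic subunit POLD1 was called lower with cytochalasin D (-1.15, adjusted p 0.0351), but its arrays read -0.45 and -0.72 and the fit without the channel term gave -0.59 (adjusted p 0.0649). Here the channel term came from one POLD1 probe and the cytochalasin D arrays from the other. POLD2 lay between -0.11 and 0.21 throughout. POLE2, a subunit of polymerase epsilon, was highest with cytochalasin D, at 0.66 and 0.48, and rose there without the channel term (0.57, adjusted p 0.0312).

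In the group of clamp loading, single-strand binding and flap processing, RPA2 had the highest fitted value of any member in any drug. RPA2, the middle subunit of the RPA trimer, read 1.17 and 0.91 with cisplatin, against -0.04 and 0.08 with cytarabine, -0.17 and 0.11 with paclitaxel, -0.02 and -0.18 with cytochalasin D and -0.08, -0.31 and -0.51 with 5-FU. The highest array of any other drug was at 0.11. It rose with cisplatin by 1.15 (SE 0.14, 2.22 times untreated, adjusted p 0.00361), and this call held in all 18 alternatives run. The fit without 5-FU replicate 1, the only source of the RPA2 channel term, could not test it. RPA1, the large subunit of the same trimer, was at 0.24 and 0.08 with cisplatin and passed in no drug.

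RFC5, a small clamp loader subunit, separated cisplatin from the rest in a similar way. It was at 0.76 and 0.48 with cisplatin, -0.29 and -0.34 with cytarabine, -0.23 and -0.17 with paclitaxel and -0.75 and -0.50 with cytochalasin D, while its 2 measured 5-FU arrays disagreed (0.31 and -0.78). The loader subunits RFC2 and RFC3 did not share this pattern. RFC2 read 0.39 and 0.39 with cytarabine and 0.30 and 0.59 with paclitaxel and rose in both without the channel term (0.39, adjusted p 0.00985, and 0.45, adjusted p 0.0114), but with the term the values were 0.14 and 0.20 and did not pass. RFC3 lay between -0.05 and 0.26 on the 8 single-orientation arrays and between -0.29 and 0.56 with 5-FU. FEN1, the flap endonuclease, read 0.56 and 0.95 with cisplatin and 0.44 and 0.55 with cytarabine, and -0.11 to 0.01 with paclitaxel and cytochalasin D. Without the channel term it rose with cisplatin (0.75, adjusted p 0.00373) and cytarabine (0.50, adjusted p 0.0142). With the term, which for FEN1 came from 1 pair (0.42), neither passed. LIG1, the replicative ligase, was at 0.20 and 1.02 in the 2 cisplatin replicates and did not pass (fitted 0.83, adjusted p 0.0644). The fitted value is corrected by a channel term that for LIG1 also came from 1 pair (-0.22).

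**Figure D4:**
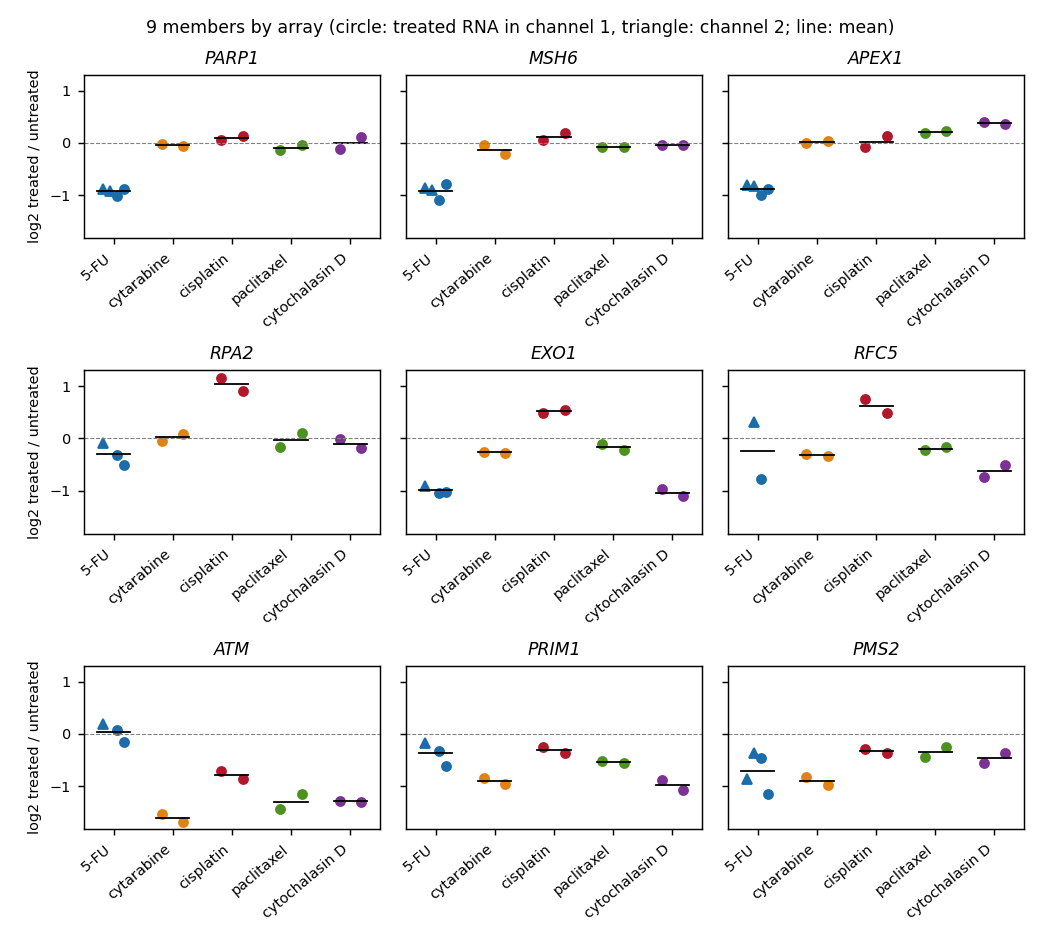
Log2 ratio of treated over untreated on each array for 9 members, by drug. Circles have treated RNA in channel 1, triangles in channel 2, and black lines are means. PARP1, MSH6 and APEX1 are at -0.79 or below on every 5-FU array, RPA2, EXO1 and RFC5 are highest with cisplatin, and ATM, PRIM1 and PMS2 are lower than untreated on every array of the 4 drugs other than 5-FU.

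Base excision repair held PARP1 and APEX1, both of which fell with 5-FU. PARP1, which binds single-strand breaks and recruits their repair, read -0.88, -0.92, -1.01 and -0.88 on the 4 5-FU arrays and between -0.14 and 0.13 on the 8 others. APEX1, the endonuclease that cuts abasic sites, read -0.82, -0.82, -1.0 and -0.88 with 5-FU and -0.08 to 0.40 elsewhere. Neither gene's 5-FU arrays overlapped any other array, in either dye orientation. PARP1 fell by 0.92 (SE 0.07, 0.528 of untreated, adjusted p 6.96e-05) and APEX1 by 0.88 (SE 0.06, 0.543 of untreated, adjusted p 5.08e-05). Each call was lost in 1 of 20 alternatives, the fit to the 5-FU arrays alone with no channel term. APEX1 also rose with cytochalasin D, at 0.40 and 0.36 (fitted 0.44, SE 0.07, adjusted p 0.013), and was at 0.19 and 0.22 with paclitaxel (adjusted p 0.0744). UNG, the uracil glycosylase that starts the pathway, was between -0.17 and 0.04 with 5-FU (95% interval of the fitted value -0.28 to 0.13), and LIG3, a ligase of the pathway, between -0.11 and 0.16. POLB, the gap-filling polymerase, had 1 value with 5-FU (-0.15) and read 0.45 and -0.12 in the 2 cytarabine replicates.

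Mismatch repair members differed by drug in both directions. MSH6, which recognises base mismatches, fell with 5-FU alongside the base excision genes: its 5-FU arrays read -0.86, -0.91, -1.10 and -0.79, and all other arrays lay between -0.22 and 0.18. The fall was 0.91 (SE 0.06, 0.53 of untreated, adjusted p 5.51e-05), a call lost in 1 of 20 alternatives, the fit to the 5-FU arrays alone. PMS2, which acts after recognition, was below 0 on all 12 arrays, most with 5-FU (-0.86, -0.38, -0.47 and -1.15) and cytarabine (-0.83 and -0.97). It fell by 0.71 with 5-FU (SE 0.08, adjusted p 0.000444) and by 0.81 with cytarabine (SE 0.09, adjusted p 0.00204), and by 0.36 with cytochalasin D (adjusted p 0.0475), a call lost in 13 of 20 alternatives. The 5-FU call was lost in 1 of 20, the fit to the 5-FU arrays alone. PMS2 and PMS2P1 are near-identical in sequence, so a probe may read both, although the PMS2P1 probe did not follow PMS2 (0.38 and 0.21 with paclitaxel, -0.08 and 0.31 with cytarabine).

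EXO1, the exonuclease of mismatch repair that also resects break ends, moved in both directions. Cisplatin gave 0.49 and 0.54, paclitaxel -0.10 and -0.22, cytarabine -0.25 and -0.29, cytochalasin D -0.98 and -1.11, and 5-FU -0.91, -1.05 and -1.02. Cisplatin, paclitaxel, cytarabine and the lower pair of cytochalasin D and 5-FU did not overlap, and within that pair they did. It rose with cisplatin by 0.59 (SE 0.09, adjusted p 0.00745) and fell with cytochalasin D by 0.97 (SE 0.09, 0.51 of untreated, adjusted p 0.00287), and both calls held in all 18 alternatives run. Neither could be tested without 5-FU replicate 1, the only source of the EXO1 channel term. With 5-FU it could be tested only without the channel term, where it fell by 1.00 (SE 0.06, adjusted p 4.74e-05). MLH3, a MutL-family protein, lay between -0.22 and 0.32 on all arrays as the mean of its probes and passed in no drug. Its probe 1845047 read 0.66 on a 5-FU array and 0.62 on a cytochalasin D array. Fitted alone, with variances moderated by limma, for cytarabine minus cisplatin, probe 1694382 gave 0.34 (adjusted p 0.0368) and probe 1845047 gave -0.55 (adjusted p 0.137).

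The nucleotide excision members on the array were poorly measured with 5-FU. ERCC5, the endonuclease that cuts 3′ of the lesion, was the single one with values on all arrays and stayed between -0.19 and 0.19. ERCC4, a subunit of the nuclease that cuts 5′ of the lesion, was below 0 on each of its 8 arrays (-0.33 to -1.5), but the cytarabine replicates were the 2 ends of that range. It could be tested only without the channel term, where it passed with cytarabine (-0.92, adjusted p 0.0352). ERCC3, the XPB helicase of TFIIH, read -0.48 and -0.63 with 5-FU and 0.40 and 0.24 with cytarabine, and fell with 5-FU without the term (-0.55, adjusted p 0.0244). The transcription-coupled repair factors ERCC6 and ERCC8 lay between -0.43 and 0.12 on the 8 single-orientation arrays, and passed in no drug. With cisplatin the array values of these 5 genes lay between -0.69 and 0.13. ERCC5, the one of them testable with the channel term, had an adjusted p of 0.145, and without the term the adjusted p of the 5 ran from 0.183 to 0.849.

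Recombination and Fanconi anaemia genes showed no call in any drug in the fit with the channel term, where 4 or 5 of the 9 could be tested and the lowest adjusted p was 0.089 (RAD51AP1 with paclitaxel). FANCC, a core complex subunit, was at -0.60 and -0.53 with cytarabine, -0.58 and -0.75 with paclitaxel, -0.59 and -0.49 with cytochalasin D and -0.18 and -0.18 with cisplatin, and fell with cytarabine (-0.56, adjusted p 0.036) and paclitaxel (-0.67, adjusted p 0.0393) without the term. BRCA1 read 0.18 and 0.50 with cisplatin and -1.15 and -0.25 with cytochalasin D, which differed by 1.04 with a wide interval (0.22 to 1.86, adjusted p 0.134). RAD54L, a motor protein of strand exchange, was at 0.77 and 0.71 with cisplatin but at 0.75 and -0.77 in the 2 cytarabine replicates, and passed nowhere (adjusted p 0.191 with cisplatin without the term). FANCG and RAD51AP1 stayed between -0.25 and 0.21 on all arrays. RAD51C ran from -0.29 to 0.14, XRCC2 from -0.41 to 0.17 on 8 arrays, and MSH5, as the mean of its probes with a value, from -0.68 to 0.31. MSH5 probe 1673638 read -1.08 on a paclitaxel array. That probe alone gave the cytarabine values of MSH5, and probe 2783671 alone gave the 5-FU values.

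Of the 3 end joining genes, XRCC6, the Ku70 subunit that binds break ends, read 0.46 and 0.33 with cytarabine, -0.23 and -0.39 with cisplatin and -0.29 and -1.25 on 2 5-FU arrays. It could be tested with 5-FU only without the channel term, where it fell (-0.77, adjusted p 0.0382). Those 2 5-FU arrays were different replicates in opposite dye orientations, so a channel effect may be part of that value. LIG4, the ligase of this pathway, was measured on all 4 5-FU arrays (-0.06 to 0.21) but on only 1 paclitaxel and 1 cytochalasin D array (-1.22 and -1.72). XRCC4, its partner, passed in no drug and differed between replicates of paclitaxel (-0.72 and 0.00).

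ATM encodes the kinase at the head of the double-strand break response and was the most strongly lowered member. It read -1.54 and -1.69 with cytarabine, -1.44 and -1.16 with paclitaxel, -1.28 and -1.31 with cytochalasin D and -0.71 and -0.86 with cisplatin. On its 3 measured 5-FU arrays it was at 0.20, 0.08 and -0.16, above each of those 8 arrays. It fell with cytarabine by 1.55 (SE 0.12, 0.34 of untreated, adjusted p 0.000828), with paclitaxel by 1.24 (adjusted p 0.00412), with cytochalasin D by 1.24 (adjusted p 0.00333) and with cisplatin by 0.73 (adjusted p 0.0107). The first 3 calls held in all 18 alternatives run, and the cisplatin call was lost without cisplatin replicate 2. The channel term for ATM came from 5-FU replicate 1 alone, so the fit without that replicate could not test these calls. Differences between 5-FU and the other drugs could be tested for ATM only without the channel term, and ran from 0.78 over cisplatin (adjusted p 0.00844) to 1.60 over cytarabine (adjusted p 0.00044). The 8 low arrays all had treated RNA in channel 1, as had the 5-FU arrays at 0.08 and -0.16.

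RAD9A, part of the checkpoint clamp, was above 0 on all 12 arrays, at 0.52, 0.52, 0.07 and 0.28 with 5-FU and 0.03 to 0.26 elsewhere. It rose with 5-FU (0.35, SE 0.06, adjusted p 0.00406) and cytarabine (0.39, adjusted p 0.00836). Each of these RAD9A calls was lost in 2 of 20 alternatives. Its calls with cisplatin (0.32, adjusted p 0.021) and cytochalasin D (0.36, adjusted p 0.0204) rest on the channel term, since without it the values were 0.15 and 0.19 (adjusted p 0.137 and 0.0896). RAD1, in the same clamp, was between -0.30 and 0.11 on 8 arrays, and POLH, the polymerase that bypasses lesions, between -0.30 and 0.40 on 8. The cohesin subunit RAD21 likewise was called lower with cytarabine (-0.34, adjusted p 0.0379) and cytochalasin D (-0.39, adjusted p 0.0399), although its arrays read -0.09 and -0.07 and -0.20 and -0.07, and the values without the term were -0.08 and -0.14 (adjusted p 0.388 and 0.251). With 5-FU it read -0.55, -0.04 and -0.43 and fell without the term (-0.36, adjusted p 0.00671). RAD54L2 varied between -0.58 and 0.67 with no call.

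Drugs were then compared with each other, 10 pairs in all, each adjusted over all features tested in that pair. Each drug's arrays enter 4 of the pairs, so pairs with a drug in common are not independent, and the labels do not say whether drugs share untreated RNA. 5-FU stood apart from every other drug in PARP1, MSH6 and APEX1. Against cytarabine, 3 of 21 members differed (background 17.9%), APEX1 by -0.96 (95% interval -1.18 to -0.73), PARP1 by -0.90 and MSH6 by -0.81 (adjusted p 0.000823, 0.00169 and 0.002). Against cisplatin, 5 of 23 differed (background 14%): MSH6 by -1.06, PARP1 by -1.04, APEX1 by -0.96, MCM7 by -0.88 and PMS2 by -0.48, with PMS2 lost in 8 of 20 alternatives. Against paclitaxel 3 of 23 differed (10.9%), APEX1 by -1.14, MSH6 by -0.87 and PARP1 by -0.85. Against cytochalasin D 3 of 23 differed (11.1%), APEX1 by -1.32 (0.4 of the cytochalasin D ratio, adjusted p 0.000262), PARP1 by -0.94 and MSH6 by -0.90. All 12 differences of these 3 genes between 5-FU and another drug held in each of the 20 alternatives run, and all rest on the same 5-FU arrays. The share of members differing was below the background for cytarabine (14.3%) and above it for cisplatin (21.7%).

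Cisplatin was the other drug that stood apart. Against cytochalasin D, 9 of 55 members differed (16.4%, background 7.74%), 8 of them higher with cisplatin. EXO1 was higher by 1.56 (95% interval 1.35 to 1.77, 2.95 times, adjusted p 0.000408), RFC5 by 1.25 (adjusted p 0.00319), RPA2 by 1.14 (adjusted p 0.00601), POLD3 by 1.01 (adjusted p 0.0239), MCM7 by 0.87 (adjusted p 0.00472), FEN1 by 0.81 (adjusted p 0.019), PRIM1 by 0.66 (adjusted p 0.0122) and POLA1 by 0.43 (adjusted p 0.0383). APEX1 was lower by 0.36 (adjusted p 0.0466, lost in 13 of 20 alternatives). Of these, EXO1 and RPA2 kept their calls in all alternatives run, whereas POLA1 lost its call in 10 of 19. POLD3 lost its call in 5 of 21, FEN1 in 4 of 19, PRIM1 in 3 of 19, RFC5 in 1 of 19 and MCM7 in 1 of 22.

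Against paclitaxel, 6 of 55 members were higher with cisplatin (10.9%, background 5.8%): RPA2 by 1.07, RFC5 by 0.82, FEN1 by 0.78, MCM7 and EXO1 by 0.68 each and FANCC by 0.48, with adjusted p from 0.00925 to 0.0312. In this pair the FANCC call was lost in 10 of 19 alternatives and the FEN1 call in 6 of 19. RFC5 lost its call in 5 of 19, MCM7 in 4 of 22, RPA2 in 2 of 19 and EXO1 in 1 of 19. Cytarabine against cisplatin gave 11 of 50 (22.0%), which is the background for that pair (22.1%). RPA2 (-1.02), RFC5 (-0.94), ATM (-0.83), POLD3 (-0.82), EXO1 (-0.79), MCM7 (-0.61), MCM2 (-0.60), PRIM1 (-0.59), PMS2 (-0.57) and FANCC (-0.38) were lower with cytarabine, and XRCC6 (0.71) was higher, with adjusted p from 0.00297 to 0.0407. MCM2 lost its call in 9 of 20 alternatives and XRCC6 and FANCC in 8 of 19 each. POLD3 lost its call in 4 of 21, PMS2 in 4 of 20, PRIM1 in 3 of 19 and RFC5 in 1 of 19, while ATM, EXO1 and RPA2 kept theirs. MCM7 here again rests on 1 of its 2 probes, since the other gave 0.03 (adjusted p 0.828). Calls on RFC5 were lost in all 3 pairs without the channel term, where its 2 discordant 5-FU arrays enter the residual spread (adjusted p 0.0561, 0.179 and 0.0685), with the differences themselves the same.

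**Figure D5:**
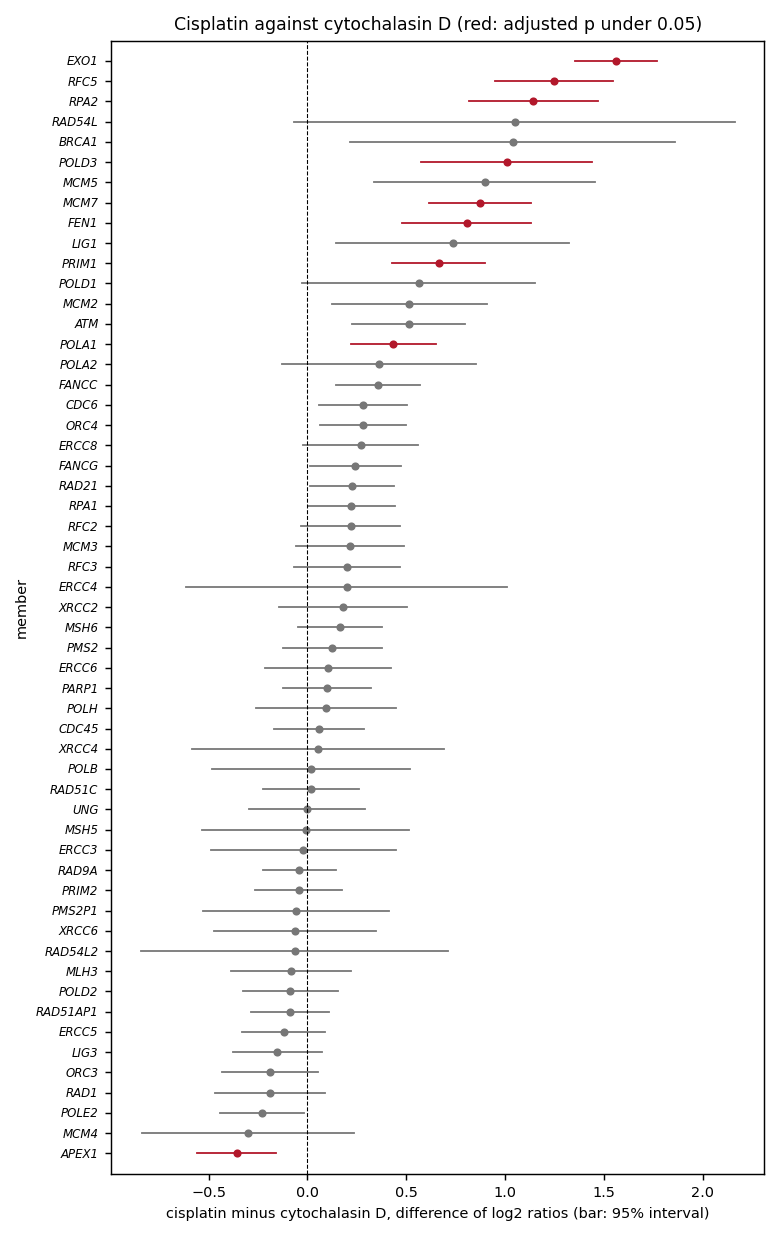
Difference between cisplatin and cytochalasin D in the log2 ratio of treated over untreated for the 55 members tested, with 95% intervals, ordered by size. Red marks an adjusted p under 0.05. EXO1 (1.56), RFC5 (1.25) and RPA2 (1.14) lead, and APEX1 (-0.36) is the single member called lower with cisplatin.

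Few members were called in the remaining pairs. Cytarabine against cytochalasin D gave 1 of 50 members (2.0%, background 3.2%), EXO1 by 0.77 (95% interval 0.56 to 0.98, adjusted p 0.0196, lost in 4 of 19 alternatives). At an unadjusted p under 0.05 there were 15 of 50 members and 1555 of 6604 features. Paclitaxel against cytochalasin D also gave 1 of 55 (background 0.204%), EXO1 by 0.88 (adjusted p 0.0272, lost in 10 of 19 alternatives), with 8 of 55 members and 792 of 6855 features at an unadjusted p under 0.05. For ATM that pair differed by -0.0021 with a 95% interval of -0.29 to 0.28. Cytarabine against paclitaxel gave 0 of 50 members and 0% of all features at limma's adjusted p, with 7 members and 1153 features at an unadjusted p under 0.05. The differences were -0.55 for PMS2 (95% interval -0.80 to -0.30, adjusted p 0.105), -0.36 for PRIM1 (-0.60 to -0.13, adjusted p 0.161) and 0.52 for FEN1 (0.19 to 0.85, adjusted p 0.157), so that equal responses are not shown. Over all 5 drugs at once, the moderated F test called APEX1, MCM7, MSH6, PARP1 and PMS2 among the 21 members it could test (23.8%, background 21.8%).

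Related genes outside the symbol rule gave further detail. Of 13 other replication genes on the array, TOP2A, the topoisomerase that untangles sister DNA, fell with cisplatin by 0.94 (adjusted p 0.00273), with cytochalasin D by 0.80, with cytarabine by 0.79 and with paclitaxel by 0.76, and with 5-FU, testable only without the channel term, by 1.08 (adjusted p 0.000175). Its 11 measured arrays were all below 0, from -0.48 to -1.48. TIMELESS, a fork protection factor, rose with cisplatin (0.50, adjusted p 0.0165), as did TOP1 (0.45, adjusted p 0.0227). SSRP1, a subunit of the histone chaperone FACT, read -0.80, -0.79, -0.69 and -0.81 with 5-FU and fell there by 0.77 (SE 0.05, adjusted p 5.08e-05), and by 0.50 with cytochalasin D (adjusted p 0.00549). In all, 1 of 6 tested fell with 5-FU, 2 of 8 with cytarabine, 1 of 10 with cisplatin, 1 of 9 with paclitaxel and 3 of 9 with cytochalasin D, and 0, 1, 2, 0 and 1 rose. In the same order, 11.2%, 11.1%, 7.8%, 4.05% and 6.33% of all features were lower. The shares higher were 4.44%, 10.9%, 8.54%, 2.65% and 4.38%, and the counts rest on few genes. With cytarabine and cytochalasin D they include TOPBP1 as lower (-0.36 and -0.43) and CHAF1A as higher (0.23 and 0.24). Without the channel term TOPBP1 was at -0.05 and -0.12 (adjusted p 0.663 and 0.343) and CHAF1A at 0.14 and 0.14 (adjusted p 0.0936 and 0.13). In that fit TOP2B fell with 5-FU (-0.77, adjusted p 0.000954) and TOPBP1 rose (0.44, adjusted p 0.00354).

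Of 33 other repair genes, the damage recognition factors of nucleotide excision, DDB2 and XPC, rose with cisplatin by 1.89 (SE 0.09, adjusted p 5.71e-05) and 1.41 (SE 0.13, adjusted p 0.00161), and DDB2 also with 5-FU by 0.82 (adjusted p 0.000174). XPC fell with cytarabine by 0.63 (adjusted p 0.0201). BARD1, the partner of BRCA1, rose with cisplatin by 0.56 (adjusted p 0.0255) and fell with cytarabine by 0.73 (adjusted p 0.00861) and cytochalasin D by 0.65 (adjusted p 0.0236). CDK7, the kinase of TFIIH, fell with 5-FU by 0.71 (adjusted p 0.000102). The counts were 1 higher and 1 lower of 14 tested with 5-FU, 2 and 3 of 21 with cytarabine, 3 and 0 of 23 with cisplatin, 2 and 1 of 23 with paclitaxel and 0 and 1 of 23 with cytochalasin D. Over all features, the shares higher and lower were 4.44% and 11.2%, 10.9% and 11.1%, 8.54% and 7.8%, 2.65% and 4.05%, and 4.38% and 6.33%, in that order. PRKDC, the end joining kinase, is counted higher with cytarabine and paclitaxel (0.86 and 0.92), but was at -0.16 and -0.10 without the channel term. Some genes could be tested with 5-FU only without that term. Of these, H2AX (-1.04, adjusted p 8.31e-05), MPG (-1.54, adjusted p 0.00124) and PRKDC (-0.89, adjusted p 0.00481) fell, and SMC5 rose (0.61, adjusted p 0.0324). PRKDC read 0.38 on its 5-FU array with treated RNA in channel 2 and -1.16 and -1.65 in channel 1.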

How the data were processed

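Gene lists and members were chosen with earlier results of these data known. The authors deposited 1 ratio per probe and array on a log scale whose base is not stated and was taken as log2, from the values. How values were normalised or filtered was not stated in these sources. Empty cells were left as missing. Probes were named through the platform annotation: of 8170 probes, 5930 had 1 gene symbol, 79 several and 2161 none. Ratios were read as channel 1 over channel 2, turned to treated over untreated and centred on each array's median, and probes of a gene were averaged, which gave 7739 features. The number of arrays limits the precision.

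Each feature was fitted by weighted least squares in R 4.3.3 on 11 observations. These were 10 replicates, with the 2 orientations of a 5-FU replicate averaged, and the channel effect seen in 5-FU pairs, weighted by 2 per pair. With 6 coefficients (5 drugs and channel), 5 residual degrees of freedom were left for complete features. Variances were moderated with limma 3.58.1 (prior df 2.64). Features with no residual degrees of freedom took the prior variance. Both replicates of each drug compared had to have a value. P-values were adjusted by Benjamini-Hochberg over all features, and called means an adjusted p under 0.05. Fits were run on simulated data with the same spread for every feature and independent arrays. Unequal spreads and shared RNA were not tested there.

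Named were all members of the helicase, RFC, RPA, primase and polymerase alpha sets, up to 10 called members each way per drug or pair with the same sign on each array (pairs: no overlap), the 2 largest values per role, untested members, and 2 other pathway genes each way per drug. Alternatives were no channel term, every array as its own observation, 1 channel observation per pair, no centring, equal array spread, complete probes, features kept wherever the contrast can be estimated, robust moderation, blocking on the replicate number, fits restricted to the arrays of the compared drugs with no channel term, each replicate left out and, added after the data were seen, single probes. Promoters are from RefSeq (GRCh38.p14).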

Additional observations from a re-analysis of the deposited data

Results flagged for a closer look

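Among 24 members measured on all 4 5-FU arrays, 3 had an array far from the other 3 on that drug: MCM3 at -0.54 (others 0.08 to 0.14), POLA2 at -1.26 (others -0.01 to 0.22) and RAD51C at -0.29 (others 0.10 to 0.14). All were 5-FU replicate 2 with treated RNA in channel 2, and chance would single out about 1 in 20. That array had values for the fewest members (31 of 57).

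Drug effects differed in a test of the difference itself for MCM7 between 5-FU and cisplatin (-0.88, adjusted p 0.00328, on 1 of its 2 probes), for APEX1 between 5-FU and cytochalasin D (-1.32, adjusted p 0.000262) and for EXO1 between cisplatin and cytochalasin D (1.56, adjusted p 0.000408).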

How the results depend on the processing

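Of 27 calls of a member in a drug against untreated cells, 9 were kept in each alternative run, and of 42 calls between drugs, 17 were. Each call with 5-FU against untreated cells was lost in the fit to the 5-FU arrays alone. Without the channel term the counts of members changed became 15 with 5-FU, 9 with cytarabine and 5 with paclitaxel, and the counts differing 12, 10, 8 and 8 for 5-FU against cytarabine, cisplatin, paclitaxel and cytochalasin D and 15 for the F test. Using only the arrays of the drugs compared, with no channel term either, gave 0 changed with 5-FU, 13 with cisplatin and 4 with paclitaxel, and 6, 9, 5 and 5 differing for those 5-FU pairs, 0 for cytarabine against cytochalasin D, 2 for cisplatin against paclitaxel, 5 for cisplatin against cytochalasin D and 0 for paclitaxel against cytochalasin D. That fit changes both choices at once, and their parts were not separated. Keeping features wherever the contrast can be estimated gave 8, 11, 8 and 7 for the 5-FU pairs and 12 for the F test. Probes complete on all 12 arrays, which are fewer genes tested, gave 2 changed with cytarabine, 3 with cisplatin, 1 with paclitaxel and 5 with cytochalasin D, and 5 differing for cytarabine against cisplatin, 1 against paclitaxel and 3 against cytochalasin D, 2 and 2 for cisplatin against paclitaxel and cytochalasin D, and 0 for paclitaxel against cytochalasin D. Equal array spread gave 7 for cytarabine against cisplatin, and each array as its own observation gave 1 changed with paclitaxel. For single probes MCM7 turned to 0.0281 for cytarabine minus cisplatin. The cause of the other shifts was not tested.

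Leaving out 1 replicate gave 6 to 7 members changed with 5-FU, 3 to 5 with cytarabine, 0 to 7 with cisplatin, 0 to 3 with paclitaxel and 3 to 8 with cytochalasin D. The 0 for cisplatin and for paclitaxel came without 5-FU replicate 1. ATM, EXO1, POLA1, PRIM1 and RPA2 could not be tested in that fit, because their channel term came from that replicate alone. MCM7 and RAD9A were refitted with cisplatin and lost their calls. Counts differing ran 3 to 7, 4 to 8, 3 to 6 and 3 to 6 for the 5-FU pairs, 5 to 11 for cytarabine against cisplatin, 0 to 1 against cytochalasin D and 0 against paclitaxel, 2 to 6 and 4 to 9 for cisplatin against paclitaxel and cytochalasin D, 0 to 1 for paclitaxel against cytochalasin D, and 4 to 10 for the F test. The difference of replicate 2 from replicate 1 was little correlated between drugs (-0.061 to 0.09). This cannot tell whether replicate numbers pair cultures, since a shared effect may cancel in a ratio. A replicate block gave 6 changed with 5-FU, 5 with cytarabine, 5 with cisplatin, 3 with paclitaxel and 6 with cytochalasin D, and 0 for paclitaxel against cytochalasin D.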
